A study of Mus musculus with 24 samples.

Results

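The genes described here encode the proteins that choose splice sites: 41 SR proteins, heterogeneous nuclear ribonucleoproteins (hnRNPs), muscle splicing regulators and splice-site recognition factors, taken as a fixed list of gene symbols. Every probe set annotated with 1 of these symbols and no other was used, and probe sets of a gene were kept apart. This found 39 of the 41 genes, among 18193 genes named in this way, in 148 of 45137 probe sets, 107 on the array design named MA and 41 on the design named MB, with 16 genes on both. No probe set named Srsf7, and the 4 probe sets that named Hnrnpa3 also named another gene, so neither was counted. A signal of at least 30 in at least 3 of the 12 arrays of a design was reached by 95 MA probe sets (36 genes) and 40 MB probe sets (18 genes), which were tested. The 13 others had mean signals between 4.22 and 24.8, and they included the only MA probe set of Rbfox1.

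C2C12 is a mouse myoblast line that divides in growth medium (GM) and forms multinucleate myotubes in differentiation medium (DM). All cells had been transduced with the pSuperR vector, either empty or with a short hairpin RNA (shRNA) against p68, the RNA helicase encoded by Ddx5. The 4 groups were therefore vector cells in GM, vector cells in DM, p68 shRNA cells in GM and p68 shRNA cells in DM, with 3 arrays each per design. How long cells were kept in DM, and whether a group's arrays came from separate cultures or clones, is not given in the sources used here. The p-values therefore reflect variation among these arrays alone, part of which may be technical.

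SR proteins carry arginine-serine repeats, bind exonic enhancers and mostly favour inclusion of an exon, while hnRNPs coat nascent RNA and often favour its skipping. Both kinds act before the spliceosome commits to a splice site, which is read by U1 small nuclear ribonucleoprotein (snRNP) at the 5′ end of the intron and by SF1, the U2AF dimer and SF3B1 at its 3′ end. In skeletal muscle, the polypyrimidine tract binding protein PTBP1 holds muscle exons out of messenger RNA in myoblasts, and proteins of the MBNL, CELF, RBFOX and RBM24 families set the exon choices of differentiated muscle. The helicase p68 is itself an RNA-binding partner of the splicing machinery.

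The array least like the others of its group was one of vector cells in DM on both designs, replicate 3 on MA and replicate 2 on MB, with mean correlations of 0.951 and 0.825. Their influence is given with the totals over all members and where it moves the count of a role. Ddx5 was read at 1419653_a_at, the brightest of several MA probe sets that name it, and the others are not given here. At this probe set Ddx5 was lower in shRNA than in vector cells in DM, by 0.68 ± 0.15 (standard error, SE) on the log2 scale (adjusted p = 0.00677). Its difference in GM was -0.31 ± 0.15 (adjusted p = 0.287). Skeletal muscle markers summed to signals of 3597 to 3933 in vector cells in GM and of 32338 to 52500 in vector cells in DM, and to 2925 to 3370 and 26996 to 30739 in shRNA cells. Of 5 adipocyte, 5 bone and cartilage and 6 macrophage markers, Adipoq, Fabp4, Cd36, Ibsp, Ptprc and Itgam stayed under 30 in every MA array, and the 3 lists summed to 161 to 384, 131 to 319 and 137 to 266. Among their tested genes Cebpa (-0.68 in vector and -0.94 in shRNA cells) and Sox9 (-0.55 and -1.24) fell from GM to DM in both cell lines, Pparg fell in shRNA cells (-1.07) and Adgre1 rose in vector cells (0.75). Of 6 smooth muscle markers, 4 were tested on MA: Tagln (-1.77 and -1.71) and Cnn1 (-1.21 and -2.14) fell in both cell lines, Acta2 rose in vector cells (0.50) and Smtn in shRNA cells (0.42). The part of these genes in the members' changes was not tested. The log2 ratio of 3′ to 5′ control probe sets, a measure of RNA integrity, moved with medium in vector cells: from 0.034 to 0.108 in GM and from -0.084 to 0.030 in DM on MA, and from 0.084 to 0.127 and from -0.044 to -0.035 on MB, without overlap on either design. In shRNA cells it lay between -0.058 and 0.039 on MA and between -0.031 and 0.025 on MB, with overlapping media. The part of this ratio in the members' changes was not tested. In whole-culture RNA, fewer cells of a kind and less RNA per cell cannot be told apart.

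Promoters are shown for 4 genes that stand for both directions of the change with medium: Ptbp1 and Srsf9, the members that fell most, and Rbm24 and Mbnl2, muscle regulators that rose. Each is the 250 bases before the start in RefSeq (build GRCm38.p6, plus strand), at chr10:79854182-79854431, chr5:115326927-115327176, chr13:46418050-46418299 and chr14:120275419-120275668, and capitals mark E-boxes (CANNTG), the motif read by MyoD and related basic helix-loop-helix factors.
Ptbp1: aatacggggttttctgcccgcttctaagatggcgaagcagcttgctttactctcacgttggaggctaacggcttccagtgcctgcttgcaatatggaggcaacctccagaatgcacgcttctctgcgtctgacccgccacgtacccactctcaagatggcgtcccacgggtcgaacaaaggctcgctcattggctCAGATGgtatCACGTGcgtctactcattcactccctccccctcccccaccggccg
Srsf9: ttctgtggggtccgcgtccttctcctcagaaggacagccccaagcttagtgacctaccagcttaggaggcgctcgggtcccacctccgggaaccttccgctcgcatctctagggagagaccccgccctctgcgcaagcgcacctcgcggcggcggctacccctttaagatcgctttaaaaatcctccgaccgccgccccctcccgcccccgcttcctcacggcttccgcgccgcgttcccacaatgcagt
Rbm24: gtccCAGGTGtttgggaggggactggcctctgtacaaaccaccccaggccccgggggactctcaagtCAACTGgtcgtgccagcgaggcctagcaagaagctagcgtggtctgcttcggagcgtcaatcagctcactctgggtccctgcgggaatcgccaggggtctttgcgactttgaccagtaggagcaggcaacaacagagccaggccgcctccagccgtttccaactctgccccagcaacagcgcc
Mbnl2: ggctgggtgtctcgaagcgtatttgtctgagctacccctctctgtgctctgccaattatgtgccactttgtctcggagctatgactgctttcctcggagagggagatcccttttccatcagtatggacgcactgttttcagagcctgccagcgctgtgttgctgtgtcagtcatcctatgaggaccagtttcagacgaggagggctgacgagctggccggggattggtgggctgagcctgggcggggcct
The Ptbp1 and Rbm24 windows held 2 E-boxes each and those of Srsf9 and Mbnl2 held 0. RefSeq promoters were matched for 38 of the 41 genes (55 promoters, some genes having several starts). Among these, 56.4% held CANNTG against 66.2% of all 32851 promoters of the same length. The GC box GGGCGG stood in 67.3% against 32.7%, the E2F motifs TTTCCCGC or TTTGGCGC in 12.7% against 1.3%, and the palindromic NRF1 motif in 16.4% against 3.74%, both strands searched. Matches of letters are descriptions of these windows and not of binding.

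The first comparison, DM against GM in vector cells, follows the members through differentiation with p68 left in place. Most SR proteins and hnRNPs that changed were lower in DM, and the muscle splicing regulators that changed were higher. On MA, 34 of 95 member probe sets (35.8%) fell, where 25.4% of all tested probe sets fell, and 10 (10.5%) rose, where 23.9% of all rose. The members' median log2 change was -0.22, against 0.008 over all 14367 tested probe sets. Vector GM and DM arrays did not overlap at 43 members (45.3%), where they did not at 53.9% of all. The changes were mostly small: 5 member probe sets fell and 1 rose by at least 2-fold, or 5.26% and 1.05%, against 9.84% and 9.54% of all. By gene, 19 genes had only falls among their calls, 6 only rises, Srsf1 had both, and 10 had no call. Without DM vector replicate 3, the array that stood apart, 27 fell and 18 rose. Markers of proliferation fell in 11 of 11 cases in the same comparison (median -2.45), their summed signal going from 13078 to 13339 in GM to 2834 to 3322 in DM, and their part in the members' falls was not tested.

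Of the SR proteins, 8 of 25 probe sets fell and 3 rose, where 25.4% and 23.9% of all tested MA probe sets did. Leaving out DM vector replicate 3 gave 7 and 5. Srsf9, an SR protein with short RS repeats, fell most. Its signals were 761, 923 and 948 in vector cells in GM and 227, 262 and 296 in DM, with 764, 912 and 961 in shRNA cells in GM and 444, 460.4 and 440.0 in DM. The DM and GM arrays did not overlap in either cell line, and the vector DM arrays were the lowest of the 12. The log2 change in vector cells was -1.69 ± 0.13 (SE, 3 arrays a group, adjusted p = 5.14e-08). Srsf1, the founding member of the family, read 650.2, 643 and 671 in GM and 399.7, 253 and 147 in DM at 1428099_a_at, a log2 change of -1.35 ± 0.26 (adjusted p = 0.000549). The DM values were spread over a wider range than the GM values, with DM replicate 3 the lowest, and none reached the GM range.

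Srsf4 (1448778_at), Srsf2 (1427504_s_at) and Srsf6 also fell. Srsf6 did so at 2 MA probe sets, 1416721_s_at (-0.93) and 1448454_at (-0.48), and at its MB probe set 1447898_s_at (-0.83 ± 0.21, adjusted p = 0.0126), the single MB member that fell, a call lost without GM vector replicate 2 or DM vector replicate 2 or 3 (adjusted p from 0.0546 to 0.0714). Srsf5 moved the other way: signals of 485, 452 and 492 in GM stood below those of 1126, 772 and 654 in DM, a log2 change of 0.78 ± 0.17 (adjusted p = 0.00128). Srsf5 was first described as a growth response gene of liver, and it is named here after its values were seen, as are Hnrnpc and the Srsf1 and Srsf3 probe sets that rose. Srsf10, which represses splicing when it loses its phosphates, had no call at 3 probe sets. Of the SR-like proteins, Tra2b rose at 1419543_a_at (0.63), and the single MA probe set of Tra2a had a log2 change of 0.03.

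Probe sets of a gene did not always move together, which the plot of changes within genes shows. Srsf1 fell at 3 probe sets, of which 1453722_s_at lost its call without GM vector replicate 4 or DM vector replicate 3 (adjusted p of 0.0572 and 0.0588), yet it rose at 1452430_s_at (0.54), a call lost without GM vector replicate 1 or 3 or DM vector replicate 1 or 2 (adjusted p from 0.0752 to 0.185), and had a log2 change of 0.80 ± 0.33 at 1428100_at (adjusted p = 0.0595). At 1428100_at the signals were 34.3, 35.8 and 22.7 in GM and 104, 90.9 and 24.8 in DM, so that the third DM array lay in the GM range. Srsf3, the smallest SR protein, rose at 1438215_at from 15.1, 18 and 29.4 to 61.7, 37.3 and 57.2 (0.90 ± 0.21, adjusted p = 0.00199), while its other 5 probe sets had log2 changes between -0.59 and 0.08 with no call. The probe sets 1428100_at and 1438215_at were dim, and the positions of the probes in the transcripts were not used here. Of the 107 MA probe sets, 30 are of the kind made for several transcripts of 1 gene (suffix _a), 10 share probes between transcripts (_s) and 14 may bind unrelated transcripts (_x).

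**Figure D1:**
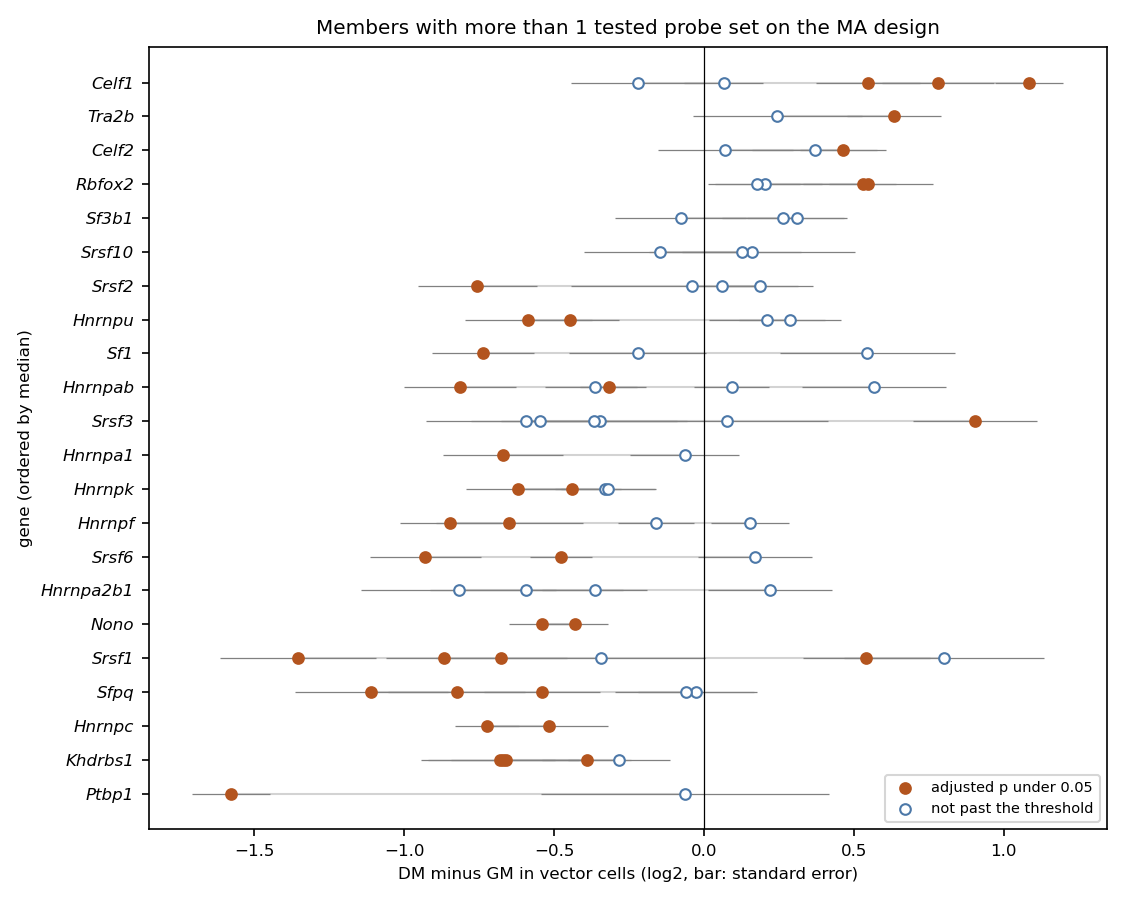
Log2 change from GM to DM in vector cells (x axis, bars are standard errors) for each tested MA probe set of the 22 member genes with more than 1, ordered by the gene's median. Filled points passed an adjusted p of 0.05, and Srsf1 is the gene with filled points on both sides of 0.

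Among the hnRNPs, 13 of 30 probe sets fell and 0 rose in the fit of all arrays, where 25.4% and 23.9% of all did. Without DM vector replicate 3, 10 fell and 2 rose, and 8 or 7 fell without GM vector replicate 1 or 4. The 13 falls were in 8 of 12 genes: Hnrnpa1, Hnrnpab, Hnrnpc, Hnrnpd, Hnrnpf, Hnrnpk, Hnrnpm and Hnrnpu. Hnrnpd, also called AUF1, which binds AU-rich elements and speeds decay of their messenger RNA, changed most. Its signals were 459.9, 528 and 454 in GM and 289, 197 and 199 in DM, a log2 change of -1.04 ± 0.15 (adjusted p = 3.82e-05), and the groups did not overlap. Hnrnpc, a core protein that packs nascent RNA, read 2676, 2889 and 2626 in GM and 1534, 1744 and 1666 in DM at 1460240_a_at (-0.72 ± 0.11, adjusted p = 5.56e-05). Every GM array was above every DM array.

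Of the 13 falls, 6 were lost on leaving out 1 array, with an adjusted p from 0.0507 (Hnrnpa1 without GM vector replicate 4) up to 0.212 (Hnrnpf 1437099_x_at): these also included Hnrnpc 1418693_at, Hnrnpk 1448176_a_at and both Hnrnpu probe sets, each lost without GM vector replicate 1. The remaining called hnRNP probe sets had log2 changes between -0.85 (Hnrnpf, 1456664_x_at) and -0.32 (Hnrnpab, 1415914_at). Hnrnpa2b1, Hnrnph1, Hnrnph2 and Hnrnpl had no call, with changes from -0.82 to 0.22. Of these, Hnrnpa2b1 at 1433829_a_at came closest, at -0.82 ± 0.33 (adjusted p = 0.0502). On MB, the 3 hnRNP probe sets lay between -0.20 and 0.09 and none was called, at a median residual SD of 0.523 on that design against 0.214 on MA.

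The RNA-binding proteins SAM68 (Khdrbs1), SFPQ and NONO fell at 9 of 12 MA probe sets, where 25.4% of all tested fell. Leaving out DM vector replicate 3 or GM vector replicate 1 or 3 left 5. SAM68 links signalling to splicing, and SFPQ and NONO form a dimer of nuclear paraspeckles. Sfpq changed most at 1423796_at (-1.11 ± 0.26, adjusted p = 0.00217), and both tested probe sets of Nono fell (-0.43 and -0.54). Of these 9 falls, 1 at Sfpq (1438458_a_at) and 3 at Khdrbs1 (1418628_at, 1437389_x_at and 1438462_x_at) were lost without DM vector replicate 3, and each of them also without GM vector replicates 1 or 3 (adjusted p from 0.0508 to 0.218 over their losses). Of the splice-site factors, Snrnp70, the U1 protein, fell at 1451104_a_at (-0.83), Sf1, the branch-point binding protein, at 1423751_at (-0.74), and U2af1, the small U2AF subunit that reads the AG at the 3′ splice site, at 1422509_at (-0.46). U2af2 (-0.13) and the 3 probe sets of Sf3b1 (-0.08 to 0.31) had no call. Sf1 had none at its other MA probe sets (-0.22 and 0.55) or at its 2 on MB (-1.22 and -0.51). Snrnp70 had none at its 3 MB probe sets (-0.02 to 0.56).

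Ptbp1 was the second largest fall. Its signals at 1424874_a_at were 1437, 1733 and 1578 in vector cells in GM, 435, 626 and 513 in vector cells in DM, 1526, 1312 and 1513 in shRNA cells in GM and 636, 669 and 706 in shRNA cells in DM. In both cell lines the GM arrays stood above all DM arrays. The log2 change was -1.58 ± 0.13 in vector cells (adjusted p = 1.27e-07). Other Ptbp1 probe sets differed: 1450443_at changed by -0.06, and the MB probe set 1458284_at, with means of 2954 ± 238 (SD) in GM and 2302 ± 351 in DM, by -0.37 ± 0.15 (adjusted p = 0.171). Ptbp2, the paralogue best known from neurons, read 71.9, 80.2 and 75.8 in GM and 108, 103 and 51.2 in DM (0.12 ± 0.21, adjusted p = 0.664), with overlapping groups.

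**Figure D2:**
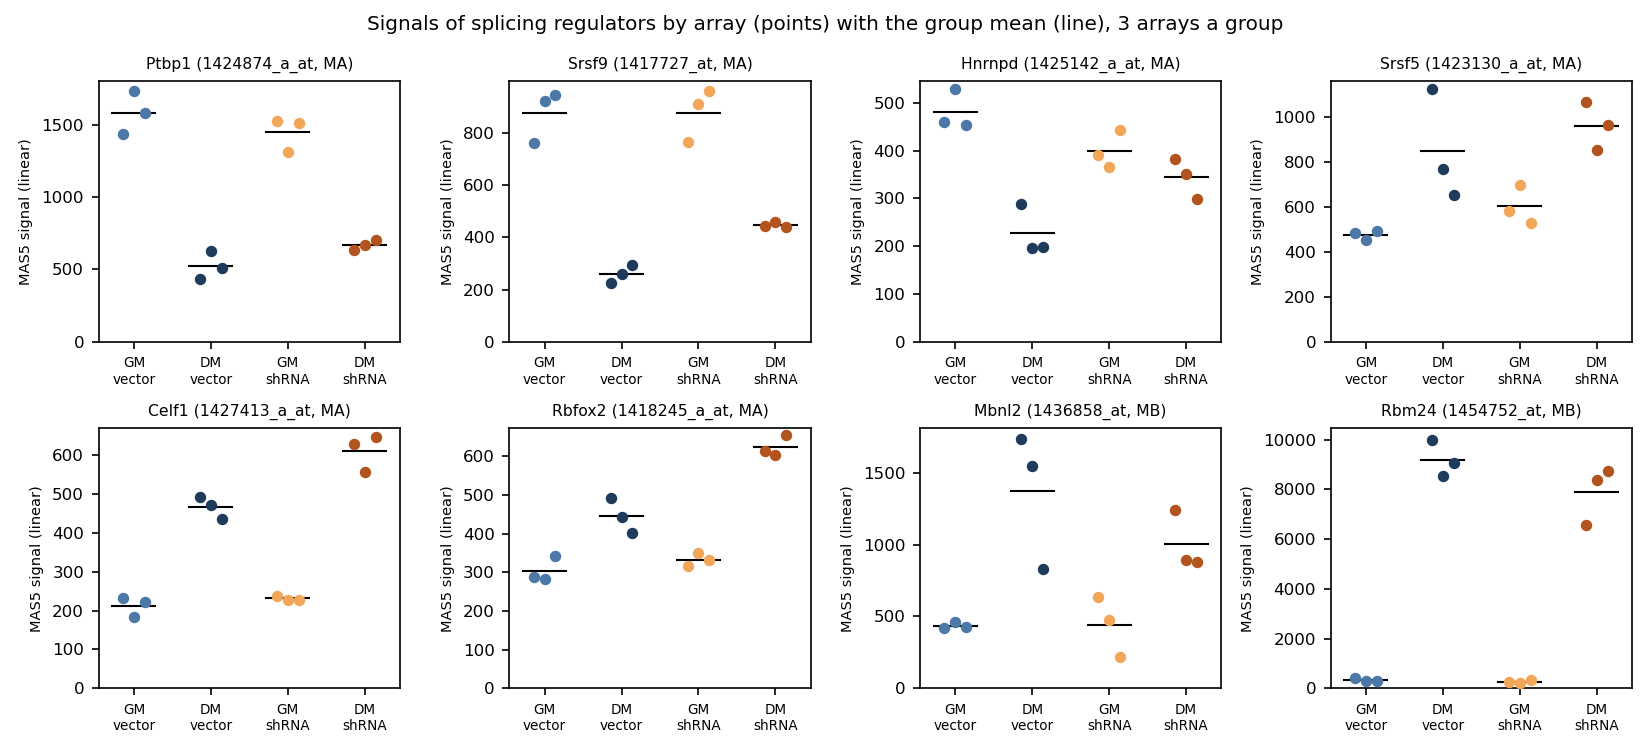
MAS5 signal (linear axis from 0) of 8 member probe sets in the 4 groups, each point being 1 array and each line the mean of 3 arrays. Each is its gene's probe set with the smallest adjusted p in limma for DM against GM in vector cells on the design shown. Other probe sets of a gene can differ. Ptbp1, Srsf9 and Hnrnpd stand lower in DM in vector cells, whereas Srsf5, Celf1, Rbfox2, Mbnl2 and Rbm24 stand higher.

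The muscle splicing regulators rose at 6 of 13 MA probe sets and 7 of 18 MB probe sets, and none fell. Of all tested MA probe sets, 23.9% rose and 25.4% fell. Without DM vector replicate 3 the MA count was also 6, and without GM vector replicate 1 the MB count was 4. These MB probe sets were the only rising members of that design: 7 of 40 (17.5%) rose and 1 (2.5%) fell, where 4.21% and 5% of all MB probe sets did. Of the 7, 3 belong to Rbm24, and Rbfox1 at 1455358_at and Celf2 at 1439777_at passed the signal filter through DM arrays, which favours a rise. Without DM vector replicate 2, 6 MB members changed in all, and without GM vector replicate 1, 5 did. Vector GM and DM arrays did not overlap at 15 MB members (37.5%), where they did not at 23.4% of all. Rbm24, which keeps muscle exons in messenger RNA and is needed for sarcomere assembly, had the largest rise of any member. At 1454752_at its signals were 403, 291 and 307 in vector cells in GM and 9983, 8543 and 9077 in DM, and 245, 213 and 342 and then 6550.3, 8362 and 8762 in shRNA cells. No DM array came near a GM array. The log2 change was 4.73 ± 0.18 in vector cells (adjusted p = 3.27e-12), and the probe sets 1456180_at (4.08) and 1458624_at (4.03) gave changes of like size. The 2 dimmer Rbm24 probe sets, 1443715_at (1.42) and 1456491_at (0.65), had no call.

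Mbnl2, a muscleblind protein that CUG repeats sequester in myotonic dystrophy, rose at 1436858_at. Its signals were 417, 461 and 427 in GM and 1736, 1545 and 829.5 in DM, a log2 change of 1.56 ± 0.31 (adjusted p = 0.00224). DM replicate 3 was the lowest of its group, but each DM array stood above every GM array. The brightest Mbnl2 probe set, 1455827_at, rose by 0.81 ± 0.23 (adjusted p = 0.0296), and this call was lost without DM vector replicate 1 or 2 or GM vector replicate 1 or 3 (adjusted p from 0.0695 to 0.144). Of the 5 tested Mbnl2 probe sets, 2 were called, with changes from -0.37 to 1.56. Those without a call had vector means in GM and DM of 540 and 1045 (1433754_at), 479 and 502 (1457237_at) and 297 and 236 (1457477_at). Mbnl1, the better known family member in muscle, did not pass: its 598, 417 and 616 in GM and 659, 594 and 423 in DM overlapped (0.04 ± 0.19, adjusted p = 0.897), and its 2 MB probe sets had no call.

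Celf1, the CUG-binding protein that opposes MBNL at many exons, rose at 3 of 5 probe sets, of which 1423932_at lost its call without GM vector replicate 4 or DM vector replicate 2 (adjusted p of 0.0731 and 0.0575). At 1427413_a_at the signals were 233, 182 and 222 in vector cells in GM, 491, 472 and 435 in vector cells in DM, 238, 228 and 228 in shRNA cells in GM and 628, 556 and 646 in shRNA cells in DM. The DM and GM arrays did not overlap in either cell line (1.08 ± 0.11, adjusted p = 1.89e-06). Its brightest probe set, 1426407_at, did not show this: 689, 598 and 543 in GM and 737, 577 and 326 in DM overlapped (-0.22 ± 0.22, adjusted p = 0.438).

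Celf2 rose at 1423895_a_at from 496, 458 and 472 to 721, 759 and 528 (0.46 ± 0.14, adjusted p = 0.0141), a call lost without DM vector replicate 2 (adjusted p = 0.0696). On MB it rose at 1439777_at (1.84 ± 0.53, adjusted p = 0.0341), which was under 30 in all GM arrays and passed the signal filter through its DM arrays. That call was lost without any 1 of GM vector replicates 1, 2 and 3 and DM vector replicates 1 and 2 (adjusted p from 0.067 to 0.148). Celf2 had 3 tested MB probe sets, of which 1 was called. The brightest, 1444152_at, went the other way without a call, with vector means of 122 in GM and 65.8 in DM. Those of 1444533_at were 58.9 and 57.8. Rbfox2, which reads UGCAUG near regulated exons, rose at 1418245_a_at from 287, 283 and 342 to 491, 444 and 402 (0.53 ± 0.11, adjusted p = 0.00119), with no overlap. Its second rise, at 1418247_s_at (0.55), was lost without any 1 of the GM vector arrays or DM vector replicate 3 (adjusted p from 0.0718 to 0.21). Its muscle- and neuron-enriched paralogue Rbfox1 rose at the MB probe set 1455358_at from 14.6, 62.5 and 28.1 to 208, 127 and 160.0 (1.93 ± 0.47, adjusted p = 0.0117). This probe set passed the filter through the vector DM arrays, which favours a rise there, and the call was lost without GM vector replicate 1 (adjusted p = 0.0746).

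The second comparison repeated the change of medium in p68 shRNA cells, on other arrays. On MA, 16 of 95 member probe sets (16.8%) rose, where 16.3% of all tested probe sets rose, and 6 (6.32%) fell, where 17.5% of all fell. The median was 0.03, against -0.003 over all. GM and DM arrays of the shRNA cells did not overlap at 40 members (42.1%), where they did not at 50.6% of all. After quantile normalization the split was 15 that rose and 9 that fell. Leaving out DM shRNA replicate 1 left 8 that rose, and 2 fell without DM shRNA replicate 3 or GM shRNA replicate 4. Proliferation markers fell in 10 of 11 cases (median -1.03), with summed signals of 11835 to 12049 in GM and 5535 to 5691 in DM, and their part in the members' changes was not tested.

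Both cell lines shared the direction of the members called in each: 13 probe sets were called in both, 8 higher and 5 lower, with no opposite pair. The same count over all tested probe sets is not given here, so shared direction is not shown to be particular to the members. The 5 that fell in both were Srsf9, Ptbp1, Srsf1 (1428099_a_at), Srsf2 (1427504_s_at) and Sfpq (1423796_at). In shRNA cells Srsf9 changed by -0.94 ± 0.13 (adjusted p = 4.62e-05) and Ptbp1 by -1.09 ± 0.13 (adjusted p = 1.31e-05). Srsf1 was called both ways in shRNA cells too: it rose at 1428100_at (1.25 ± 0.33, adjusted p = 0.00964, lost without DM shRNA replicate 1 at 0.0536) and at 1452430_s_at (0.82 ± 0.21, adjusted p = 0.00766). The falls of Srsf1, Srsf2 and Sfpq there were each lost without DM shRNA replicate 3 or GM shRNA replicate 4 (adjusted p from 0.083 to 0.139). Among the muscle regulators, 9 of 13 probe sets rose and 0 fell, where 16.3% and 17.5% of all tested MA probe sets did. The rises included all 4 of Rbfox2 (0.45 to 0.88), 3 of 5 of Celf1 (0.57 to 1.34) and 2 of 3 of Celf2 (0.78 and 1.06). Of these 9 rises, 4 were lost on leaving out 1 array: Rbfox2 at 1418247_s_at and 1434938_at without GM shRNA replicate 2 or 4 or DM shRNA replicate 2 or 3, Celf1 at 1423932_at without GM shRNA replicate 2 or DM shRNA replicate 1 or 2, and Celf2 at 1451154_a_at without GM shRNA replicate 3 or DM shRNA replicate 1. Rbfox2 at 1418247_s_at was also lost without DM shRNA replicate 1, and the adjusted p over all these losses ran from 0.0565 to 0.135. Celf2 at 1423895_a_at stood at 349, 379.5 and 308 in shRNA cells in GM and at 837, 639 and 741 in DM, clear of each other (adjusted p = 4.64e-05). Rbfox2 at 1418246_at passed the filter through the shRNA DM arrays.

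Of all tested MA probe sets, 16.3% rose and 17.5% fell in shRNA cells. Among the hnRNPs there, 2 of 30 probe sets rose, Hnrnph1 (1415872_at, 0.93) and Hnrnpu (1450849_at, 0.58), and 1 fell. Both rises were lost without DM shRNA replicate 1 (adjusted p of 0.0692 and 0.0795). The 1 that fell was Hnrnpa2b1 at 1433829_a_at, with 292, 226 and 453 in GM and 249, 134 and 82.9 in DM (-1.05 ± 0.33, adjusted p = 0.0216). Its groups overlapped, and the call was lost without DM shRNA replicate 2 or 3 or GM shRNA replicate 4 (adjusted p from 0.0613 to 0.111). On MB 5 of 40 members rose (12.5%) and 0 fell, where 2.27% and 2.57% of all did: 3 probe sets of Rbm24 (3.91 to 4.83), Mbnl2 at 1436858_at (1.26) and Celf2 at 1439777_at (2.24). The Celf2 probe set passed the filter through the DM shRNA arrays, so that its rise here is favoured by how it was admitted, and its call was lost without GM shRNA replicate 2 or 3 or DM shRNA replicate 1 (adjusted p from 0.0548 to 0.0791). The Mbnl2 call was lost without GM shRNA replicate 3 or DM shRNA replicate 1 (0.118 and 0.11). Without DM shRNA replicate 1 or GM shRNA replicate 3, 3 of these 5 were left. Mbnl2 had 5 tested MB probe sets, of which 1 was called in shRNA cells (0.04 to 1.26). Celf2 had 3, of which 1 was called (-0.23 to 2.24). GM and DM arrays of shRNA cells did not overlap at 9 MB members (22.5%), where they did not at 21% of all.

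Of the MA calls, 31 were made in vector cells alone (29 falls and 2 rises) and 9 in shRNA cells alone (8 rises and 1 fall), which does not by itself show a difference between the cell lines. All 34 probe sets that fell in vector cells had a smaller fall or a rise in shRNA cells, a direction that choosing them by their fall in vector cells favours. Across the 95 tested probe sets the changes in the 2 cell lines had a Pearson r of 0.813, and across the 40 MB probe sets 0.867, or 0.495 across the 35 that are not of Rbm24. Probe sets of a gene are not independent. The same counts and r over all tested probe sets are not given here, so these describe the members without a comparison. The test of the difference is the interaction given further on.

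**Figure D3:**
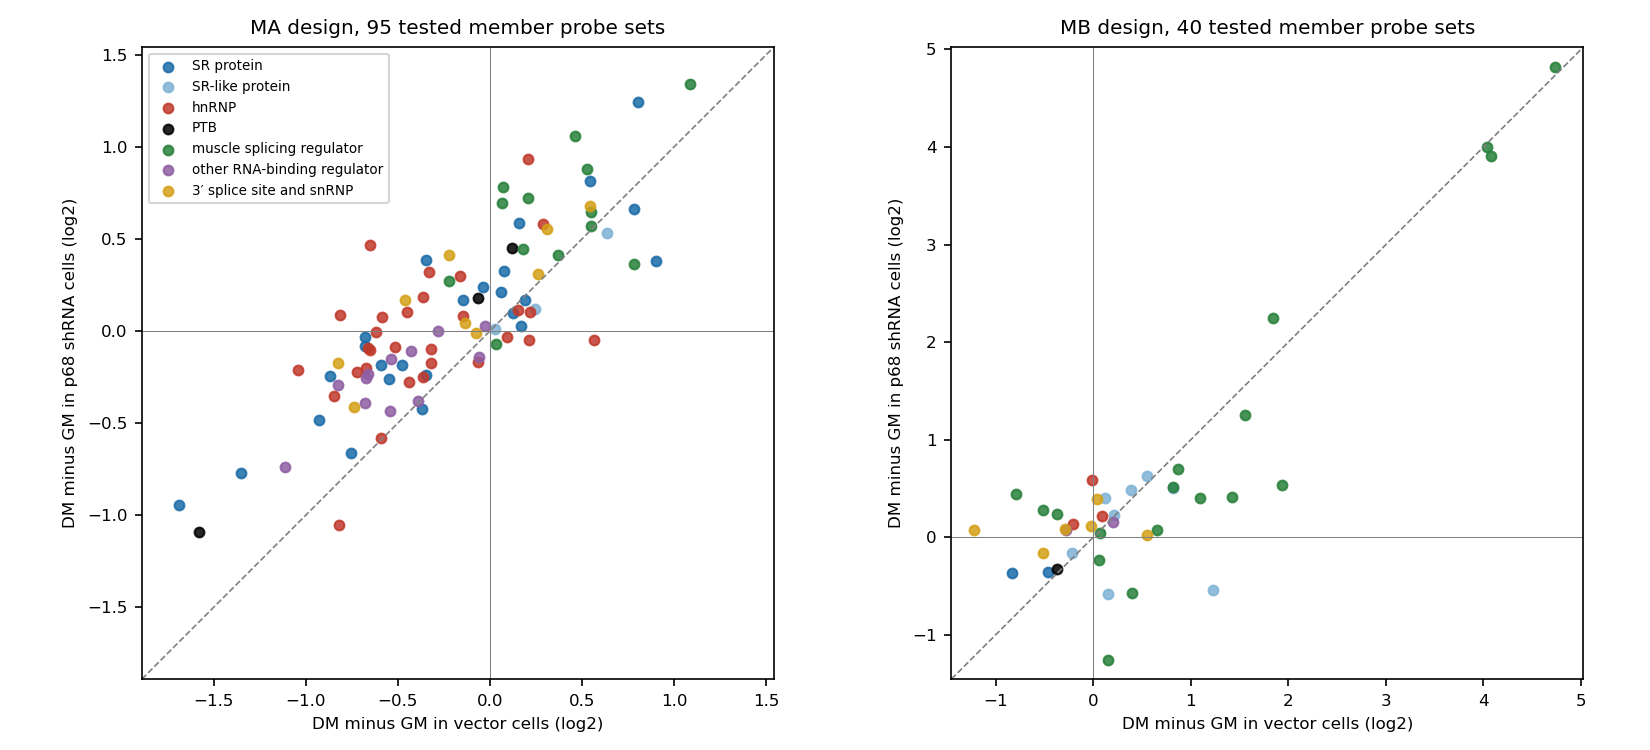
Log2 change from GM to DM in p68 shRNA cells (y axis) against that in vector cells (x axis) for the 95 tested MA (left) and 40 tested MB (right) member probe sets, coloured by role, with the line of equal change dashed. Most MA members that fell in vector cells lie above the line, and 3 Rbm24 probe sets lie near 4 to 5 on both MB axes.

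The third comparison set p68 shRNA against vector cells in DM. It shares the vector DM arrays with the first comparison and the shRNA DM arrays with the second. Splicing factors that passed were higher with the shRNA on MA: 9 of 95 (9.47%) rose and 0 fell, where 10.7% and 6.24% of all tested probe sets did. An unadjusted p under 0.05 was reached by 24 members (25.3%), where 29.4% of all reached it. The members' median was 0.26, against 0.05 over all. Without the outlying DM vector replicate 3 the count was 11, without DM vector replicate 1 it was 20, and without DM shRNA replicate 1 or 2 it was 4. In the same comparison 9 of 11 proliferation markers rose (median 1.31) and 4 of 9 muscle markers fell, and their part in the members' differences was not tested. DM arrays of vector and shRNA cells did not overlap at 18 MA members (18.9%), where they did not at 30.7% of all.

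Among the MA probe sets that passed, Srsf9 had the largest difference, while larger ones of Hnrnpl (0.80) and of 1 Srsf1 probe set (0.78) did not pass. The DM signals of Srsf9 given above, 227, 262 and 296 in vector cells and 444, 460.4 and 440.0 in shRNA cells, were apart by more than either group's spread (0.75 ± 0.13, adjusted p = 0.000892). In GM the means were 877 ± 102 (SD) and 879 ± 102. Srsf9 and Rbfox2 were the 2 of the 10 calls over both designs that held under every alternative run. Rbfox2 at 1418245_a_at read 491, 444 and 402 in vector cells and 613, 603 and 654 in shRNA cells in DM, without overlap (0.47 ± 0.11, adjusted p = 0.00883).

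Further SR proteins were Srsf4 and Srsf6, relatives with long arginine-serine domains. Srsf4 stood at 209, 223 and 239.6 in vector and 272, 333 and 303 in shRNA cells (0.41 ± 0.11, adjusted p = 0.0165), lost without DM shRNA replicate 2 (adjusted p = 0.09). Srsf6 at 1448454_at stood at 821, 823 and 706 in vector and 1024, 982 and 1090.4 in shRNA cells (0.39 ± 0.10, adjusted p = 0.0157), lost without DM shRNA replicate 3 (adjusted p = 0.0642). In both, every shRNA array was above every vector array. Each call was also lost when the groups compared were fitted alone (adjusted p of 0.086 and 0.0667). The 3 tested MA probe sets of Srsf6 ran from 0.10 to 0.39 (median 0.12), with 1 call, and its MB probe set had a difference of 0.19 without a call.

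Of the hnRNPs, Hnrnpd, Hnrnpk and Hnrnpab passed. Hnrnpd read 289, 197 and 199 in vector and 383, 352 and 299 in shRNA cells (0.58 ± 0.15, adjusted p = 0.0146), with the highest vector array just under the lowest shRNA array. Hnrnpk, a poly(C)-binding protein, read 428, 402 and 264 against 671, 535 and 454 at 1423684_at (0.59 ± 0.17, adjusted p = 0.0237). Hnrnpab read 137, 179 and 165 against 254, 272 and 222 at 1448144_at (0.60 ± 0.19, adjusted p = 0.0395). The groups were apart at these probe sets of all 3 genes. The 5 tested MA probe sets of Hnrnpab ran from -0.67 to 0.60 (median 0.06), with 1 call. The calls were lost without DM shRNA replicate 1 or 2 or DM vector replicate 2 for Hnrnpd (adjusted p from 0.0542 to 0.0673), without DM shRNA replicate 1 or 2 or DM vector replicate 3 for Hnrnpk (0.0619 to 0.114), and for Hnrnpab without any 1 DM array except vector replicate 3 (0.0502 to 0.136).

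Snrnp70 at 1451104_a_at stood at 224, 269 and 264 in vector and 327, 335 and 383 in shRNA cells (0.44 ± 0.15, adjusted p = 0.0498), apart but at the edge of the threshold, and lost without any 1 DM array except vector replicate 3 (adjusted p from 0.0709 to 0.162). Snrnp70 had no call at its 3 MB probe sets (-0.32 to 0.28). Celf1 at 1427413_a_at was higher with the shRNA in each DM array (0.38 ± 0.11, adjusted p = 0.0352), lost without DM vector replicate 2 or 3 or DM shRNA replicate 1 or 3 (adjusted p from 0.0719 to 0.118). The 5 tested MA probe sets of Celf1 ran from -0.10 to 0.39, with 1 call. Ptbp1 at 1424874_a_at, with DM arrays that also did not overlap, had a difference of 0.36 ± 0.13 (adjusted p = 0.0707).

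On MB, 1 of 40 members (2.5%) fell with the shRNA in DM and 0 rose, where 0.389% and 0.782% of all did. This was Rbfox1 at 1455358_at, with 208, 127 and 160.0 in vector cells and 23.3, 13.2 and 37.7 in shRNA cells (-2.20 ± 0.47, adjusted p = 0.0258). Every shRNA array lay far below every vector array, but most shRNA values were under the filter of 30 and the probe set was admitted through the vector DM arrays. The call was lost without DM vector replicate 1 or 3 or DM shRNA replicate 1 or 2 (adjusted p from 0.062 to 0.136). Leaving out DM vector replicate 2, the MB array that stood apart, kept it. The other tested Rbfox1 probe sets, 1438217_at (-0.32) and 1447735_x_at (-0.95), had no call. Rbm24 stayed high with the shRNA: its difference at 1454752_at was -0.23 ± 0.18 (adjusted p = 0.73). Its probe sets 1456180_at (-0.53) and 1458624_at (-0.37) were also lower without a call, and their DM arrays did not overlap between the cell lines. Such non-overlap was found at 5 MB members (12.5%), where 13.8% of all showed it.

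**Figure D4:**
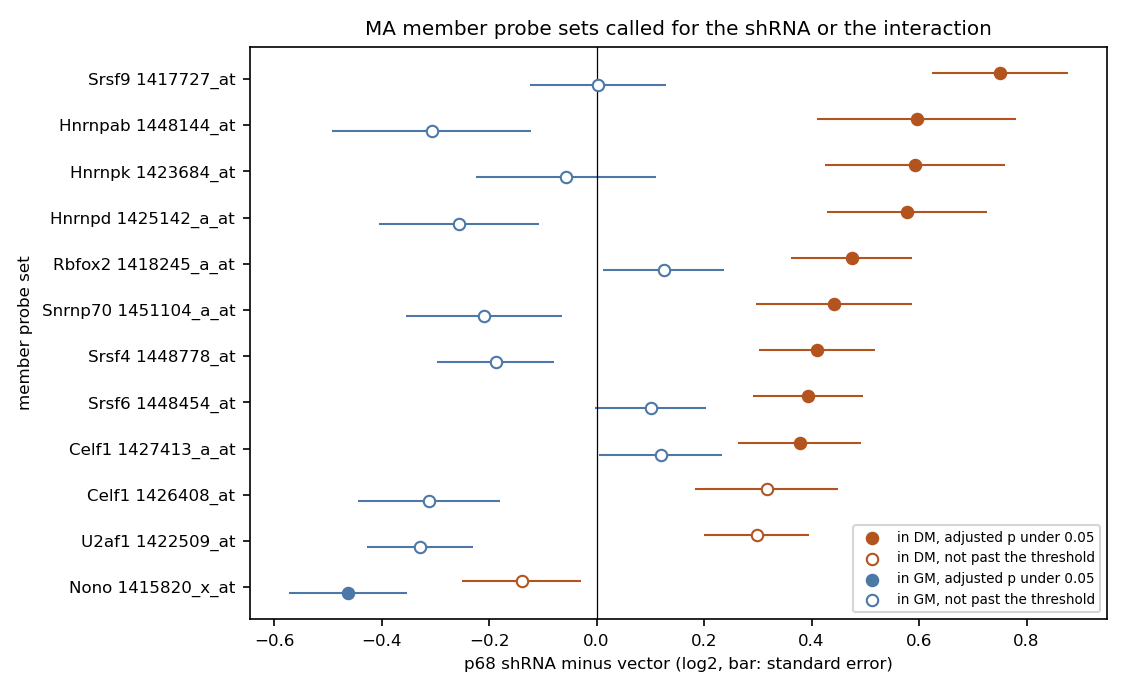
Log2 difference of p68 shRNA from vector cells in DM (orange) and in GM (blue), with standard errors as bars, for the 12 MA member probe sets called for the shRNA in either medium or for the interaction. Filled points passed an adjusted p of 0.05. The orange points lie right of 0 except for Nono, and the only filled blue point is Nono at -0.46.

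In GM, the fourth comparison, the shRNA went with few differences. On MA 1 of 95 members (1.05%) fell and 0 rose, where 2.57% and 3.99% of all did, and 9 (9.47%) had an unadjusted p under 0.05 in limma, where 20.5% of all did. GM arrays of vector and shRNA cells did not overlap at 16 members (16.8%), where they did not at 30% of all. Nono at 1415820_x_at read 770.0, 724 and 825 in vector and 554, 578 and 537 in shRNA cells (-0.46 ± 0.11, adjusted p = 0.0219). The groups were well apart, yet the call was lost without GM vector replicate 1 or 4 or any 1 of the 3 shRNA arrays (adjusted p from 0.0504 to 0.0836). Its second tested MA probe set, 1448103_s_at, had a difference of -0.30. On MB none was called with limma, where 0.275% of all were, and 1 (2.5%) had an unadjusted p under 0.05, where 7.22% of all did. Proliferation markers fell in 2 of 11 cases in GM (median -0.25), and their part was not tested.

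The interaction tests whether the change from GM to DM differed between the cell lines. On MA 6 of 95 member probe sets (6.32%) had a more positive change in shRNA cells and 0 a more negative one, where 5.48% and 4.48% of all tested probe sets did. The members' median difference was 0.29, against 0.01 over all. The 6 were Hnrnpab at 1448144_at (0.90 ± 0.26, adjusted p = 0.0425), Hnrnpd (0.83 ± 0.21, adjusted p = 0.0218), Srsf9 (0.75 ± 0.18, adjusted p = 0.0168), Celf1 at 1426408_at (0.63 ± 0.19, adjusted p = 0.0472), U2af1 (0.63 ± 0.14, adjusted p = 0.0105) and Srsf4 (0.60 ± 0.15, adjusted p = 0.0231). Over their 5 tested MA probe sets each, Hnrnpab ran from -0.62 to 0.90 (median 0.11) and Celf1 from -0.42 to 0.63 (median 0.26). Without DM vector replicate 3 the count of calls was 9, and without DM shRNA replicate 2 or GM vector replicate 3 it was 2. The call of Srsf4 was lost without GM vector replicate 3 or 4, GM shRNA replicate 2 or DM shRNA replicate 2 (adjusted p from 0.0514 to 0.0731), that of Hnrnpd without GM vector replicate 3, DM vector replicate 2, GM shRNA replicate 3 or DM shRNA replicate 1 or 2 (0.0536 to 0.059), that of Hnrnpab without any of 9 arrays (0.0513 to 0.107) and that of Celf1 without any of 8 (0.0743 to 0.115). Srsf9 and U2af1 kept theirs without any 1 array. On MB none was called with limma, where 0.389% of all were, and 4 (10%) had an unadjusted p under 0.05, where 8.46% of all did.

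These 6 took different forms. Srsf9 fell in both cell lines, by less with the shRNA. Hnrnpd and Srsf4 fell in vector cells and had changes of -0.21 ± 0.15 and -0.08 ± 0.11 in shRNA cells. Hnrnpab at 1448144_at fell in vector cells, and its shRNA arrays overlapped between media, at 254, 163 and 303 in GM and 254, 272 and 222 in DM.

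U2af1 read 989, 957 and 1053 in GM and 723, 706 and 739 in DM in vector cells, and 715, 880.0 and 789.8 in GM and 879, 878 and 917 in DM in shRNA cells. The vector groups were far apart, and the shRNA groups overlapped at 1 array. Celf1 at 1426408_at was the case in which the shRNA cells rose: 176, 198 and 159 in GM and 204, 167 and 188 in DM in vector cells, and 164, 135 and 123 and then 248, 231 and 227 in shRNA cells (0.69 ± 0.13, adjusted p = 0.000948). Proliferation markers also had a more positive change in shRNA cells, in 8 of 11 cases, and their part was not tested.

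Other genes of the splicing machinery, from lists that hold none of the members, are given with each gene counted by its brightest probe set. The shares of all tested probe sets beside them also count dimmer probe sets, so the comparison is not of like with like. Of 46 tested core spliceosome genes on MA, 25 fell and 2 rose from GM to DM in vector cells (median -0.51), and 14 fell and 3 rose in shRNA cells (median -0.21). These are 54.3% and 4.35% in vector cells, where 25.4% and 23.9% of all tested probe sets fell and rose, and 30.4% and 6.52% in shRNA cells, where 17.5% and 16.3% did. On MB, 4 of 21 core genes fell and 3 rose in vector cells (19% and 14.3%, where 5% and 4.21% of all did), and 1 fell and 0 rose in shRNA cells. The largest falls in vector cells were those of Lsm2 (-1.70) and Lsm4 (-1.46), which ring the end of U6 RNA, Snrnp25 (-1.43) of the minor spliceosome, and Snrpa1 (-1.28) and Sf3b2 (-1.27) of U2 snRNP. Slu7 (1.01), a second-step factor, and Bcas2 (0.40) rose. Of 32 further hnRNPs and splicing regulators, 9 fell and 3 rose in vector cells (28.1% and 9.38%) and 2 fell and 4 rose in shRNA cells (6.25% and 12.5%). Rbm38, a p53 target, went furthest (2.98 and 2.80), and Matr3 (-1.04) and Tardbp (-1.02) fell in vector cells.

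Among the 9 kinases of SR proteins, the muscle-specific Srpk3 rose (2.42 in vector and 1.65 in shRNA cells, and 4.15 and 4.16 on MB), as did Clk1 (1.14 and 0.93), while Srpk1 fell (-0.75 and -0.43 on MA). On MB, Qk, the quaking protein of muscle and glia, rose by 2.86 in vector and 1.67 in shRNA cells at 1429735_at. Its brightest MA probe set, 1451179_a_at, had changes of -0.01 (adjusted p = 0.971) and 0.53 (adjusted p = 0.122). Other probe sets that name Qk are not given here. Also on MB, Rbm20, a regulator of titin exons, rose by 1.45 in vector cells. With the shRNA in DM, 4 core genes rose and 1 fell (Lsm2 0.70, Snrnp27 0.70, Lsm3 0.42, Usp39 -0.48). The 8.7% that rose stands beside 10.7% of all tested probe sets, and the 2.17% that fell beside 6.24%. Of the further regulators, 3 rose and 2 fell (Matr3 0.94, Rbm38 -0.65), or 9.38% and 6.25%. In GM 1 core gene rose and 5 fell (2.17% and 10.9%, where 3.99% and 2.57% of all did).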

How the data were processed

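RNA of 4 groups of C2C12 cells was measured on 2 Affymetrix mouse array designs, MA and MB, 12 arrays each. The deposited values are linear MAS5 signal intensities, 1 per probe set, made by the authors with MAS5, a tool that the submitters' processing notes name without a version. Scanner files were not used here. Per the values in the deposited tables, each array had been scaled to a mean signal intensity near 150 after trimming 2% from each end. Signals were not rescaled. Probe sets with a signal of at least 30 in at least 3 of 12 arrays were kept, and log2(signal + 15) was fitted in limma 3.58.1 (R 4.3.3) with 4 group means over the 12 arrays of a design and a mean-variance trend, leaving 8 residual degrees of freedom. A fold change on this scale understates that of dim probe sets. Adjusted p is Benjamini-Hochberg over all tested probe sets of a design and comparison, with a threshold of 0.05. Every adjusted p in the text comes from this fit, except those given for lost calls. These come from refits with an array left out or with only the compared groups. Designs were fitted apart. The number of arrays limits the precision.

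Gene symbols came from the platform annotation. Probe sets were named where they passed with at least 2-fold change and a group mean of at least 150, where they passed for the shRNA or the interaction, or where they were the brightest of a muscle regulator or PTB gene; others are named as chosen after their values were seen or given in ranges. The members and the lists of other genes were chosen with earlier results of these data known. Alternatives changed the pseudocount (5 or 50), the filter (none or 60), the scaling (quantile), the trend, the arrays in the fit and the replicate block, and left out each array in turn. The fit was tested on simulated data.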

Additional observations from a re-analysis of the deposited data

Results flagged for a closer look

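Each of 6 member probe sets on MA had a change from GM to DM that differed between shRNA and vector cells by the interaction term in limma, always more positive in shRNA cells. The difference was 0.75 on the log2 scale for Srsf9 (1417727_at), 0.63 for U2af1 (1422509_at), 0.83 for Hnrnpd (1425142_a_at), 0.63 for Celf1 (1426408_at), 0.90 for Hnrnpab (1448144_at) and 0.60 for Srsf4 (1448778_at). They make up 6.32% of the tested members, where 5.48% of all tested MA probe sets had a more positive change. Srsf9 and U2af1 kept the call under every alternative run, while the other 4 lost it on leaving out 1 of several arrays. Over their 5 tested MA probe sets each, the interaction ran from -0.62 to 0.90 for Hnrnpab and from -0.42 to 0.63 for Celf1.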

How the results depend on the processing

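No called change of a member probe set turned its direction under the alternatives run. Changes without a call were not checked for this. Of the calls of single member probe sets, 684 of those recomputed under other settings stayed past the threshold and 72 did not, and on leaving out an array 447 stayed and 165 did not. Calls that held under every alternative numbered 33 of 52 for medium in vector cells, 12 of 27 for medium in shRNA cells, 2 of 10 for the shRNA in DM, 0 of 1 in GM and 2 of 6 for the interaction. The MA count of 9 for the shRNA in DM became 4 with only the compared arrays fitted and 15 with the replicate block, and that of 1 in GM became 0 without the trend, 4 with only the compared arrays, 3 with the replicate block and 2 with the stricter filter. The MB count of 1 for the shRNA in DM became 0 without the trend and with only the compared arrays, and 2 after quantile normalization, which also gave 1 MB interaction in place of 0. Leaving out 1 array gave, on MA, 8 to 18 that rose and 24 to 38 that fell in vector cells, 8 to 14 that rose and 2 to 6 that fell in shRNA cells, 4 to 20 for the shRNA in DM, 0 to 1 in GM and 2 to 9 interactions. On MB it gave 5 to 8 in vector cells, 3 to 5 in shRNA cells and 0 to 1 for the shRNA in DM. The cause of these changes was not tested. The replicate numbers were not taken to pair the arrays, since not every same-numbered pair had correlated deviations over 0.1. On MA 6 of 13 pairs did (-0.139 to 0.293, median 0.0926 against -0.0245 for other pairs), and on MB 0 of 18 (-0.0391 to 0.0698, median 0.0113 against -0.00307). An array correlated best with its own number in 16 of 26 choices on MA and 14 of 36 on MB. The higher residual spread of MB limits what that design could detect.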

Other observations

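Probe sets that name several genes were left out of the counts above, and their signal cannot be assigned to 1 gene. Of those that name Hnrnpa1, a shuttling hnRNP that represses exon inclusion, 1423531_a_at had mean signals of 637 in vector cells in GM, 214 in vector cells in DM, 399 in shRNA cells in GM and 403 in shRNA cells in DM. It fell in vector cells (-1.56 ± 0.24, limma adjusted p = 7.79e-05), and its interaction was 1.59 ± 0.34 (adjusted p = 0.00872). With the shRNA in DM it was higher by 0.93 ± 0.24 (adjusted p = 0.0149), and so were 1430019_a_at (0.55, adjusted p = 0.0266) and 1430020_x_at (0.64, adjusted p = 0.0183). Of the 4 probe sets that name Hnrnpa3, a relative of Hnrnpa1, 1428262_s_at (-0.97, adjusted p = 0.0171) and 1452712_at (-0.90, adjusted p = 0.00906) fell in vector cells, and 1452712_at had an interaction of 1.35 ± 0.36 (adjusted p = 0.0308).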
